A study of Mus musculus with 8 samples.

Results

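Common Foxp3 binding sites that lie inside genes, away from the genes' ends, numbered 2226 of the 3847 common sites and of the 5521 sites listed in all. A site was kept when its centre lay inside a protein-coding gene body of the RefSeq gene table and more than 1 kb from either end of every protein-coding gene. The remaining common sites comprised 976 between genes and 645 within 1 kb of a gene end. No signal value entered this choice by position. The common sites themselves are a list of Foxp3 binding sites, and how signal shaped that list is unknown. The decision to study the gene-body sites was made with earlier results of these data known.

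Binding was measured by CUT&Tag, in which an antibody bound to chromatin recruits a transposase that cuts and tags the DNA beside it. The 4 groups had 2 libraries each, namely R397W Foxp3, WT Foxp3, R397W IgG and WT IgG, where normal rabbit IgG gave the background. R397W cells came from mice of genotype Foxp3R397W-IRES-hCD2/Foxp3-IRES-GFP and WT cells from mice of genotype Foxp3WT-IRES-hCD2/Foxp3-IRES-GFP, all on C57BL6/J. Cells of both genotypes were sorted fresh as CD4+hCD2+GFP- from lymph nodes and spleen, so the GFP-tagged Foxp3 allele was carried by every mouse but was not the one expressed in the sorted cells. The labels give no age, and they do not say whether replicates 1 and 2 came from separate mice, so p-values measure only the spread between these libraries, which may be technical.

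Foxp3 is a forkhead transcription factor that regulatory T (Treg) cells need for their identity and for restraining other immune cells. It binds enhancers and promoters that are already open in T cells, often beside factors of the ETS, Runx and AP-1 families. Enhancers often lie inside the transcribed part of a gene, and an internal site may also mark an alternative start of transcription. The conserved elements inside Foxp3 itself are an example of enhancers within a gene.

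Sequence was at hand for the sites that overlap a RefSeq start window, which spans 250 bases before to 50 bases after an annotated transcription start (GRCm38.p6, the build called mm10). On the chromosomes in that table, 84 of 2164 gene-body sites (3.88%) overlapped such a window, which was a start of the host gene in 76 cases and of another gene only in 8. Sequences below are the parts upstream of the start that fall within the site, for the 6 sites with the highest mean Foxp3 signal among 70 with at least 100 such bases. They are shown because mean Foxp3 and IgG signal, as scaled, were close to each other at such internal starts, unlike at other gene-body sites. Capitals mark the motifs searched on both strands: the forkhead motifs TGTTTAC and TGTTTNC, of which the second includes the first, the AP-1 motif TGANTCA, the CRE motif TGACGTCA and the ETS motif CCGGAAG. The stretches are chr4:154160691-154160934 on the minus strand for Tprgl, chr3:65958250-65958445 on the minus strand for Ccnl1, chr11:44520134-44520288 on the plus strand for Rnf145, chr2:30124612-30124756 on the minus strand for Zer1, chr9:45955250-45955462 on the minus strand for Sidt2 and chr9:66945841-66946085 on the plus strand for Rps27l.
Tprgl: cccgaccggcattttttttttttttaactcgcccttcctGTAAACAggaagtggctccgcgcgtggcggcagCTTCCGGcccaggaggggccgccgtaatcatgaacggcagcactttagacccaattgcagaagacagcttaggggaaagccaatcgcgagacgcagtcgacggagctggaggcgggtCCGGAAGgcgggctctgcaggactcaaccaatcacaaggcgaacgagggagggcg
Ccnl1: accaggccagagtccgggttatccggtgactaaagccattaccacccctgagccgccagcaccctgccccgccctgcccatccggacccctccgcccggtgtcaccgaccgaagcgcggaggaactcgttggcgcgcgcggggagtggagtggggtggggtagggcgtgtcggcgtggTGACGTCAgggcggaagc
Rnf145: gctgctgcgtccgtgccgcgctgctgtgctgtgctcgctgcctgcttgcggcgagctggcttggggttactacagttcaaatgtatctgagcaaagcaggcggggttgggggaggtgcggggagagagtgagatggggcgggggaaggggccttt
Zer1: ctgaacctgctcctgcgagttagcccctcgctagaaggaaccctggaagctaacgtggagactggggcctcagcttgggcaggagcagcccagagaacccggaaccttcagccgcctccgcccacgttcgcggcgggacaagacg
Sidt2: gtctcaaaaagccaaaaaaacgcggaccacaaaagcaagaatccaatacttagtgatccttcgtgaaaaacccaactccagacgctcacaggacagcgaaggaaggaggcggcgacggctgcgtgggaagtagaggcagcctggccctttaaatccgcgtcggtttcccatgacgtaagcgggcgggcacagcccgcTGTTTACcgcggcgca
Rps27l: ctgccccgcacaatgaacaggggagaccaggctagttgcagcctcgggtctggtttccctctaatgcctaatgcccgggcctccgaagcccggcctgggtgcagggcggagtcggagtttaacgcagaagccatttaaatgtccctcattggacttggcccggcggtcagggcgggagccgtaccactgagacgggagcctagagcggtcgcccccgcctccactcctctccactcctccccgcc

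In these stretches Tprgl held a forkhead match and ETS matches, Ccnl1 a CRE match and Sidt2 a forkhead match. None of the searched letters occurred in the stretches of Rnf145, Zer1 and Rps27l. Over all 96 start windows that touched a gene-body site, 11.5% held TGTTTAC, against 8.23% of 474 windows touching common sites at gene ends and 3.65% of all 32851 start windows. TGTTTNC was in 33.3% of the windows at gene-body sites, 21.5% of those at gene ends and 20.5% of all windows. The ETS motif was in 15.6% of the windows at gene-body sites, 28.3% of those at gene ends and 8.86% of all. The AP-1 motif was in 3.13%, 5.27% and 7.81% of the same sets, and the CRE motif in 4.17%, 2.32% and 1.79%. The median GC content was 58.7% in the windows at gene-body sites, 60.3% at gene ends and 52.7% in all windows, and the median number of CpG dinucleotides was 17, 22.5 and 7. Windows of neighbouring starts can overlap and share sequence, and a match is a description of letters, not a bound site.

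The gene-body sites lay deep inside long genes. Their median distance to the nearest end of any protein-coding gene was 18207.5 bp (quartiles 7474 and 36973.5 bp), and 1825 of 2226 (82.0%) were more than 5 kb from every end. The host genes had a median length of 65880.5 bp, against 17146 bp for all 21900 protein-coding genes in the table. A longer gene has more room for an internal site under the rule used, and gene length was not adjusted for. At the limit itself, the closest sites kept were 1004 bp from an end of Cage1, 1005 bp from Snx14 and 1014 bp from Git2, and the closest left out were 993 bp from Zfp281, 991 bp from Cytip and 990 bp from Agap2. Whether sites fell in exons or introns was not analysed here.

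Along the gene the sites were spread almost evenly. The strand of the host gene was known for 1742 sites, whose median position was 47.1% of the gene length from the 5′ end (quartiles 24.4% and 71.5%). Of these, 340 (19.5%) lay within 10 kb of the 5′ end. The sites belonged to 1200 host genes, of which 761 held 1 site, 360 held 2 to 4 and 79 held 5 or more, and 22 sites lay in overlapping genes. The 79 genes with 5 or more sites held 539 sites (24.2%). Neighbouring sites in a gene were a median of 8316.5 bp apart, and 169 of 1026 neighbouring pairs were less than 2 kb apart, so sites of a gene need not be independent.

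**Figure D1:**
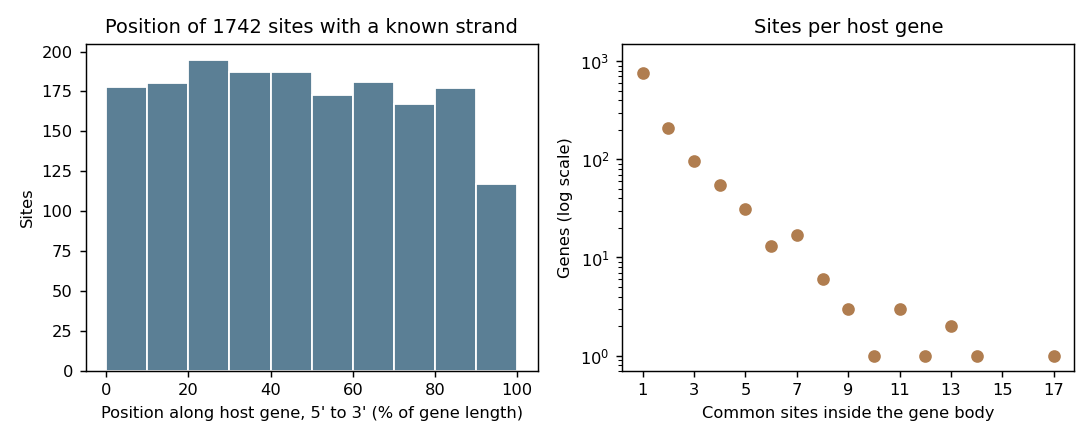
Left, number of sites (vertical axis) by position along the host gene in percent of gene length, for the 1742 sites with a known strand. Right, number of host genes (log scale) by the number of common sites inside the gene body. Sites are spread along the gene with fewer in the last bin, and 761 of 1200 genes hold 1 site.

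Values are normalised read counts, as deposited, and are labelled as spike-in normalised. Reads in the common sites numbered 82560 to 314574 per library, of which 40369 to 130834 lay in the gene-body sites. The libraries numbered 2 were sparse in all 4 groups, although each had more reads in common sites than the library numbered 1 of its group. Those reads numbered 82560 and 224118 in R397W Foxp3 and 199497 and 314574 in WT Foxp3 for replicates 1 and 2. IgG libraries had 85228 and 214094 in R397W and 233962 and 243342 in WT. Gene-body sites without reads made up 20.3% and 62.1% in R397W Foxp3, 5.80% and 54.4% in WT Foxp3, 22.8% and 65.5% in R397W IgG, and 34.5% and 73.0% in WT IgG, for replicates 1 and 2. Only 280 gene-body sites (12.6%) had reads in all 8 libraries, against 21.2% of all common sites. A site without reads is one where no signal was detected, which does not show that binding was absent.

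At gene-body sites, WT cells had more signal with anti-Foxp3 than with IgG in both replicates, and in R397W cells the excess was small. The sites come from a list of Foxp3 binding sites, and which libraries served to find them is unknown. Choosing sites by Foxp3 signal could by itself place Foxp3 above IgG. If WT libraries served for that choice, it could also place WT above R397W. Neither was tested, and this limit holds for all comparisons of antibodies or genotypes below. The mean normalised read count was 47.6 and 25.8 in R397W Foxp3, 55.6 and 27.4 in WT Foxp3, 41.4 and 23.8 in R397W IgG, and 30.2 and 18.6 in WT IgG. The ratio of Foxp3 to IgG was therefore 1.15 and 1.08 in R397W, with a mean of 1.12 ± 0.048 (SD, n = 2), and 1.84 and 1.47 in WT, with a mean of 1.66 ± 0.26 (SD, n = 2). With same-numbered libraries set against each other, the lowest WT ratio exceeded the highest R397W ratio. The labels do not settle that pairing. With a library left out, the ratio ranged from 0.792 to 1.54 in R397W and from 1.12 to 2.28 in WT, and these ranges overlapped. Each such ratio sets a single library against the mean of both libraries of the other antibody. Replicate 2 means were lower in every group, so the overlap cannot decide whether the genotypes differ. Both antibodies moved between the genotypes. The anti-Foxp3 mean in R397W was 0.857 and 0.943 times that in WT, and the IgG mean 1.37 and 1.28 times. These are pools of sorted cells, in which fewer cells with a bound site and less binding per cell cannot be told apart.

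The share of a library's reads does not depend on its scaling factor. Gene-body sites, 57.9% of the common sites, took 48.9% and 39.8% of the reads in common sites in R397W Foxp3, 51.1% and 41.6% in WT Foxp3, 47.7% and 38.9% in R397W IgG, and 43.4% and 34.2% in WT IgG. Within same-numbered libraries the Foxp3 share exceeded the IgG share by 1.17 and 0.852 percentage points in R397W, and by 7.69 and 7.38 percentage points in WT. The IgG share itself was 4.29 and 4.73 percentage points higher in R397W than in WT, a larger step than the difference in the Foxp3 share, which was -2.23 and -1.80 percentage points.

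**Figure D2:**
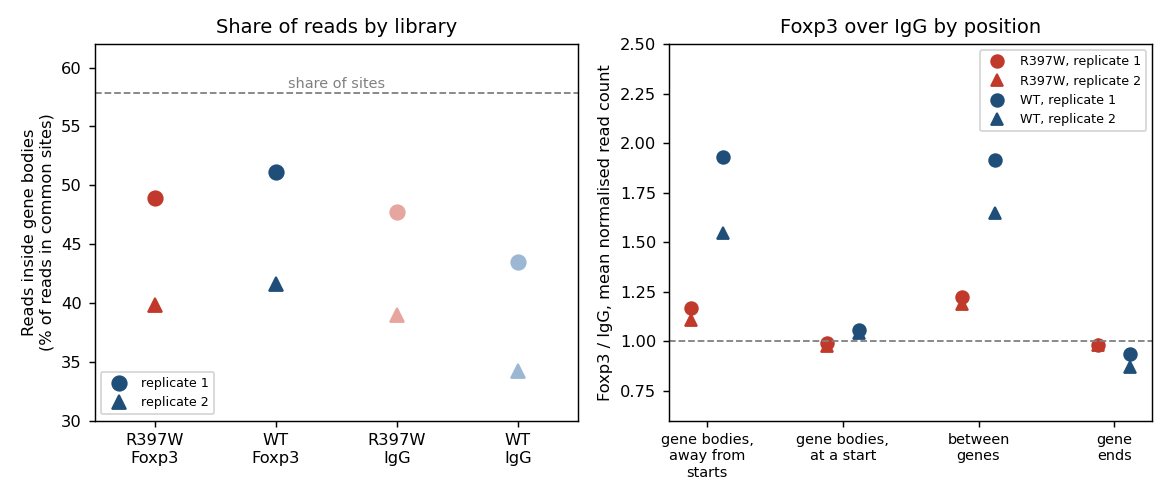
Left, reads in gene-body sites as a percentage of the reads in common sites, by library (circles replicate 1, triangles replicate 2), where the dashed line is the share of sites, 57.9%. Right, ratio of Foxp3 to IgG mean normalised read count in R397W (red) and WT (blue) by site position, with a dashed line at 1. WT ratios stand above R397W ratios at gene-body sites away from starts and between genes, and all ratios lie near 1 at annotated starts and gene ends.

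Gene-body sites at an annotated start had about as much signal with IgG as with anti-Foxp3. At the 84 sites on a start window the mean normalised read count was 88.8 and 95.7 in R397W Foxp3, 89.3 and 92.9 in WT Foxp3, 89.6 and 98.0 in R397W IgG, and 84.4 and 89.1 in WT IgG. All 8 means lay within a narrow range, and the ratio of Foxp3 to IgG was 0.991 and 0.976 in R397W and 1.06 and 1.04 in WT. At the 2080 sites away from start windows the ratio was 1.17 and 1.11 in R397W and 1.93 and 1.55 in WT. The common sites at gene ends resembled the internal starts, with ratios of 0.982 and 0.981 in R397W and 0.935 and 0.872 in WT. Those between genes had 1.22 and 1.19 in R397W and 1.92 and 1.65 in WT. These ratios are given as descriptions, without a test. The scaling factors equalled median-of-ratios factors over 815 common sites with reads in all 8 libraries, of which 280 were gene-body sites. Such scaling centres well-covered sites near a ratio of 1. A ratio near 1 is thus relative to those sites and does not show that Foxp3 binding was absent.

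Distance from the 5′ end gave a like pattern in WT but not in R397W. The ratio of Foxp3 to IgG in WT was 1.46 and 1.14 at the 340 sites within 10 kb, 1.93 and 1.69 at the 755 sites from 10 to 50 kb and 2.00 and 1.55 at the 647 sites beyond 50 kb. In R397W it was 1.15 and 1.17, 1.15 and 0.989, and 1.21 and 0.984 over the same distances. By number of sites per gene, the WT ratio was 1.47 and 1.23 in genes with 1 site, 2.03 and 1.96 in genes with 2 to 4, and 2.74 and 1.39 in genes with 5 or more. Genes with 1 site had the lowest ratio in both replicates, and the order of the other groups differed between replicates.

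The gene-body sites with the most Foxp3 signal were also strong with IgG. Among them the Heg1 site, described below, had WT Foxp3 well above WT IgG, at 668 and 794 against 250 and 238. The strongest lay in Zbtb7a, which encodes a zinc finger repressor (chr10:81137195-81137595, plus strand gene, 2170 bp from the 5′ end). It had 575 and 756 in R397W Foxp3, 509 and 845 in WT Foxp3, 414 and 688 in R397W IgG, and 976 and 1200.2 in WT IgG. WT IgG was thus the highest group and did not overlap the other 3 groups.

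The next site by mean Foxp3 signal, in the peptidase gene Amz2, had 436 and 820 in R397W Foxp3, 401 and 714 in WT Foxp3, 272 and 507 in R397W IgG, and 340 and 1097 in WT IgG. The site in Hdac7, a histone deacetylase gene active in lymphocytes, had 299 and 334 in R397W Foxp3, 308 and 727 in WT Foxp3, 113 and 354 in R397W IgG, and 305 and 465 in WT IgG. The site in Pik3r5, which encodes a regulatory subunit of PI3-kinase gamma, had 362 and 349 in R397W Foxp3, 488 and 363 in WT Foxp3, 154 and 377 in R397W IgG, and 248 and 249 in WT IgG. In Amz2 and Hdac7 Foxp3 and IgG overlapped in both genotypes, and in Pik3r5 they overlapped in R397W but not in WT.

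Values at the 3 internal starts with a motif match in the printed sequence differed from site to site. Tprgl had 284 and 418 in R397W Foxp3, 279 and 636 in WT Foxp3, 134 and 360 in R397W IgG, and 232 and 670 in WT IgG. Ccnl1, a cyclin gene linked to RNA splicing, had 247 and 653 in R397W Foxp3, 221 and 322 in WT Foxp3, 256 and 606 in R397W IgG, and 285 and 101 in WT IgG. Sidt2, which encodes a lysosomal membrane protein, had 113 and 374 in R397W Foxp3, 141 and 218 in WT Foxp3, 95.1 and 55.4 in R397W IgG, and 214 and 52.7 in WT IgG. Foxp3 and IgG overlapped at Tprgl and Ccnl1 in both genotypes, and at Sidt2 they overlapped in WT but not in R397W. Of the 3 printed starts without a match, Rnf145 had 329 and 282 in WT Foxp3 against 217 and 50.3 in WT IgG. Rps27l went the other way, with 109 and 145 in WT Foxp3 against 204 and 236 in WT IgG. In R397W Foxp3 and IgG overlapped at Rnf145 and Rps27l, and at Zer1 they overlapped in both genotypes.

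Foxp3 was set against IgG site by site with limma on log2(normalised read count + 1), with adjustment over all 5521 sites. In WT, 1 of 2226 gene-body sites passed an adjusted p of 0.05, in Arhgef10, against 0.0725% of all sites tested. Without adjustment 56 were higher and 2 lower at p below 0.05, where 2.41% and 0.163% of all sites were. In 408 gene-body sites (18.3%) both WT Foxp3 libraries exceeded both WT IgG libraries, close to the 19.5% of all sites, and in 55 (2.47%) both were lower, against 4.84% of all sites. The median log2 difference was 1.34 at gene-body sites and 1.27 over all sites. That median was 0 with WT Foxp3 replicate 1 left out and 2.84 with WT Foxp3 replicate 2 left out, 2.08 without WT IgG replicate 1 and 0.47 without WT IgG replicate 2.

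In R397W no gene-body site passed, nor did any site of the whole table (0% called). Without adjustment 20 were higher and 14 lower at p below 0.05, against 0.906% and 0.561% of all sites, while edgeR called 0 with 5 higher and 0 lower unadjusted, and DESeq2 called 0 with 15 higher and 7 lower. Both Foxp3 libraries exceeded both IgG libraries at 191 gene-body sites, against 10.4% of all sites, and lay below them at 143, against 7.84%. The median log2 difference was 0.02, and it ranged from -0.88 to 1.32 when 1 library was left out.

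The site in Arhgef10, which encodes a guanine nucleotide exchange factor (chr8:14985763-14986163), had 473 and 64.4 in R397W Foxp3, 376 and 365 in WT Foxp3, 349 and 143 in R397W IgG, and 240 and 0 in WT IgG. The WT Foxp3 libraries were close to each other, and one WT IgG library had no reads. The log2 difference of Foxp3 from IgG was 4.58 in WT (SE 0.93, limma adjusted p = 0.0019), higher in 2 of 2 libraries, and it depends on the pseudocount because of the library at 0. The call was lost by edgeR and DESeq2, where the log2 difference was 1.63 in each, and with a pseudocount of 5, equal totals, no trend or a replicate block. It was also lost in 7 of the 8 fits that left out 1 library. The log2 difference was 0.62 without WT IgG replicate 2 and 8.54 without WT IgG replicate 1, the fit that kept the call.

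Among gene-body sites with reads in all 8 libraries and WT groups that did not overlap, the largest WT differences of Foxp3 from IgG were at Prex1, Pik3ap1, Eps15l1 and Cuedc1. Prex1 encodes an exchange factor for Rac and had 28.9 and 23.8 in R397W Foxp3, 103 and 100 in WT Foxp3, 38.5 and 69.4 in R397W IgG, and 15.9 and 0.498 in WT IgG. Pik3ap1 encodes an adaptor of PI3-kinase and had 123 and 5.80 in R397W Foxp3, 164 and 103 in WT Foxp3, 138 and 26.7 in R397W IgG, and 28.4 and 0.498 in WT IgG. WT IgG was lowest at Prex1, and WT Foxp3 and WT IgG did not overlap at either site. Cuedc1 had 99.8 and 5.15 in R397W Foxp3, 200 and 81.0 in WT Foxp3, 49.8 and 16.5 in R397W IgG, and 9.91 and 2.99 in WT IgG. The lowest differences were at Alpk3, with 46.1 and 12.1 in WT Foxp3 against 147 and 200 in WT IgG, and at a site near the 5′ end of Plcg1, with 32.7 and 12.6 in WT Foxp3 against 89.9 and 140 in WT IgG. Plcg1 encodes the phospholipase that acts downstream of the T cell receptor. None of these 6 sites passed the adjusted threshold (limma adjusted p = 0.99 for each).

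R397W Foxp3 was set against WT Foxp3 to ask which sites differ when Foxp3 carries the missense change. By limma no gene-body site passed, and 0% of all sites did. At an unadjusted p below 0.05, 0 gene-body sites were higher and 7 lower, against 0.0543% and 0.272% of all sites. By edgeR 0 were called, with 0 higher and 6 lower unadjusted, and by DESeq2 0 were called, with 5 higher and 10 lower. Both R397W libraries lay below both WT libraries at 227 gene-body sites (10.2%) and above them at 96 (4.31%), against 12.6% and 6.43% of all sites. The median log2 difference was -0.37 at gene-body sites and -0.39 over all sites.

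Single libraries decided that median. With WT Foxp3 replicate 1 left out it was 0.68, and with R397W Foxp3 replicate 2 left out 0.54. Leaving out WT Foxp3 replicate 2 gave -1.78, and leaving out R397W Foxp3 replicate 1 gave -1.79. Without WT Foxp3 replicate 2, 340 gene-body sites were called lower. The share of sites without reads differed between these libraries, and its part in the result was not tested. At the 280 sites with reads in every library the median was -0.18, against -0.02 at the 938 sites of the whole table with reads in every library. R397W libraries were entirely higher at 24 of the 280 (8.57%) and entirely lower at 54 (19.3%), against 14.3% and 15.9% of the 938.

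The 7 gene-body sites lower at an unadjusted p below 0.05 lay in Heg1, Chd7, Zswim6, Eps15l1, Cd247, Slc12a8 and Sh3pxd2a, of which the last 2 and the Cd247 site are named after their values were seen. The site in Heg1, which encodes a membrane receptor of endothelial cells (chr16:33708064-33708464, plus strand gene, 23880 bp from the 5′ end), had 218 and 200 in R397W Foxp3, 668 and 794 in WT Foxp3, 258 and 44.5 in R397W IgG, and 250 and 238 in WT IgG. WT Foxp3 stood above the other 3 groups, and R397W Foxp3 lay within the range of R397W IgG. The log2 difference of R397W from WT was -1.80 (SE 0.37, limma adjusted p = 1), lower in 2 of 2 libraries.

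The site in Chd7, which encodes a chromatin remodeller (chr4:8811025-8811425), had 94.5 and 40.6 in R397W Foxp3, 435 and 404 in WT Foxp3, 140 and 245 in R397W IgG, and 125 and 63.2 in WT IgG. Again WT Foxp3 was highest, and R397W Foxp3 lay below R397W IgG. The log2 difference of R397W from WT was -2.74 (SE 0.63, limma adjusted p = 1). The site in Zswim6 had 44.6 and 23.2 in R397W Foxp3, 166 and 264 in WT Foxp3, 20.4 and 80.8 in R397W IgG, and 33.7 and 28.4 in WT IgG. The site in Eps15l1, which encodes an endocytic adaptor, had 36.8 and 3.87 in R397W Foxp3, 95.8 and 207 in WT Foxp3, 90.5 and 126 in R397W IgG, and 33.7 and 0.498 in WT IgG. R397W and WT Foxp3 did not overlap at either, as the choice of these sites required. The remaining site among the 4 lowest with reads in every library and no such overlap lay in Fam169b. It had 105 and 0.644 in R397W Foxp3 and 189 and 318 in WT Foxp3. IgG had 129 and 147 in R397W and 130 and 45.3 in WT. A nearly empty library thus set the log2 difference of -4.22 (SE 1.92) at Fam169b.

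The opposite direction was read among sites with reads in every library whose R397W and WT Foxp3 libraries did not overlap. The largest differences there were in Zfp185, Zfp445, Uggt1 and Il18r1. The site in Uggt1, which encodes a sensor of protein folding in the endoplasmic reticulum, had 86.6 and 137 in R397W Foxp3, 25.5 and 25.1 in WT Foxp3, 20.4 and 50.3 in R397W IgG, and 80.6 and 71.2 in WT IgG. Il18r1 encodes a subunit of the interleukin-18 receptor and had 147 and 76.0 in R397W Foxp3, 61.9 and 11.2 in WT Foxp3, 15.8 and 20.4 in R397W IgG, and 5.95 and 7.46 in WT IgG. R397W Foxp3 was highest at Uggt1 and Il18r1. Zfp445, a zinc finger gene with a role at imprinted regions, had 73.5 and 121 in R397W Foxp3, 29.1 and 13.5 in WT Foxp3, 54.3 and 137 in R397W IgG, and 65.4 and 38.8 in WT IgG. Zfp185 had 91.9 and 123 in R397W Foxp3, 74.0 and 4.66 in WT Foxp3, 67.9 and 276 in R397W IgG, and 110 and 20.9 in WT IgG. At both of these the highest value was in an R397W IgG library. None of these 4 reached an unadjusted p of 0.05 in limma.

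**Figure D3:**
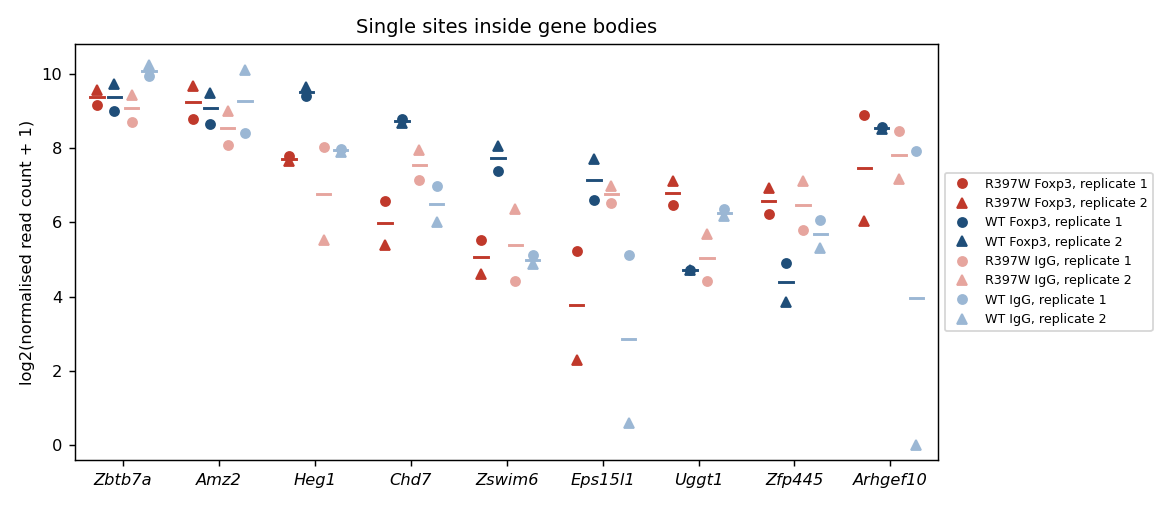
log2(normalised read count + 1) at 9 gene-body sites, with groups in the order R397W Foxp3, WT Foxp3, R397W IgG and WT IgG, circles for replicate 1, triangles for replicate 2 and bars for the mean of 2 libraries. WT Foxp3 is the highest group at Heg1 and Chd7, R397W Foxp3 is the highest at Uggt1, and the groups lie close together at Amz2.

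Large fitted differences came from sites that were empty in a whole group. A site in Srcap, which encodes a chromatin remodeller, had 31.5 and 43.8 in R397W Foxp3, 0 and 0 in WT Foxp3, 0 and 0 in R397W IgG, and 6.61 and 0 in WT IgG. A site in Asxl2, which encodes a Polycomb-associated protein, had 57.8 and 18 in R397W Foxp3, 0 and 0 in WT Foxp3, 6.79 and 0 in R397W IgG, and 0 and 0 in WT IgG. Among Foxp3 libraries, only those of R397W had reads at both sites. At 3 other sites only those of WT had them. The Fndc3b site had 0 and 0 in R397W Foxp3, 64.3 and 67.5 in WT Foxp3, 4.53 and 0 in R397W IgG, and 52.2 and 0 in WT IgG. A site in Itsn1 had 0 and 0 in R397W Foxp3, 53.4 and 25.1 in WT Foxp3, 4.53 and 0 in R397W IgG, and 39.7 and 1.99 in WT IgG. A site in Gm8369 had 0 and 0 in R397W Foxp3, 38.8 and 31.7 in WT Foxp3, 11.3 and 0 in R397W IgG, and 1.32 and 52.2 in WT IgG. A WT IgG library exceeded the lower WT Foxp3 library at Itsn1 and Gm8369, and WT IgG replicate 1 at Fndc3b lay below both. None of these 5 passed in limma, and no fold is given for a group at 0.

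The difference between genotypes in Foxp3 minus IgG was tested as an interaction. No gene-body site and no other site passed in limma (0% called), and 5 gene-body sites were higher and 27 lower at an unadjusted p below 0.05, against 0.272% and 1.38% of all sites. By edgeR 0 were called, with 3 higher and 8 lower unadjusted, and by DESeq2 0, with 2 higher and 34 lower. The median difference was -1.22 at gene-body sites and -1.02 over all sites, and it was 0.03 without WT Foxp3 replicate 1 and 0.00 without R397W IgG replicate 1. In the IgG libraries alone, R397W set against WT also gave 0 calls in limma (0% of all sites), with 4 gene-body sites higher and 2 lower unadjusted, against 0.272% and 0.199%. There edgeR called 0, with 7 higher and 5 lower unadjusted, and DESeq2 called 0, with 66 higher and 5 lower. Both R397W IgG libraries exceeded both WT IgG libraries at 244 gene-body sites (10.96%), against 11.3% of all sites, and lay below them at 76 (3.41%), against 5.51%. The median IgG difference was 0.44. It was 0 with WT IgG replicate 2 or R397W IgG replicate 1 left out, 1.81 with WT IgG replicate 1 left out, 1.74 with R397W IgG replicate 2 left out and 0.92 by DESeq2.

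Sites of known T cell genes were present in part, and of all 21900 protein-coding genes 5.48% held a gene-body site. No listed gene had a called gene-body site in either comparison. Of 18 core Treg genes 9 held a gene-body site, with 23 sites in all, of which 16 had a lower and 7 a higher value in R397W than in WT Foxp3 (median log2 difference -0.76) and 20 had a higher value with anti-Foxp3 than with IgG in WT. Over all sites tested, 60.4% had a lower and 38.5% a higher value in R397W, and 74.3% a higher value than IgG in WT. When 1 library or setting was changed, the core Treg median lay between -2.29 and 1.57, so its sign depended on single libraries.

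The core Treg site with the most Foxp3 signal lay in Il2ra, which encodes the interleukin-2 receptor alpha chain (chr2:11653356-11653756, 10764 bp from the 5′ end). It had 228 and 250 in R397W Foxp3, 329 and 568 in WT Foxp3, 256 and 160 in R397W IgG, and 138 and 70.7 in WT IgG. WT Foxp3 was the highest group and R397W Foxp3 lay within the range of R397W IgG. The log2 difference from IgG in WT was 2.12 (SE 0.58, limma adjusted p = 0.16), and that of R397W from WT Foxp3 was -0.85 (SE 0.45, limma adjusted p = 1). The site inside Foxp3 itself had 76.1 and 175 in R397W Foxp3, 212 and 233 in WT Foxp3, 303 and 0 in R397W IgG, and 194 and 29.9 in WT IgG, so that a library without reads stood beside the highest one in the same group. The site in Stat5b, which encodes a transcription factor activated by interleukin-2, had 226 and 15.5 in R397W Foxp3, 278 and 79.2 in WT Foxp3, 145 and 48.4 in R397W IgG, and 109 and 0 in WT IgG. Ikzf2, which encodes the Treg factor Helios, had 91.9 and 20.6 in R397W Foxp3, 53.4 and 0 in WT Foxp3, 140 and 0 in R397W IgG, and 21.1 and 0 in WT IgG.

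Of 16 genes of naive and resting T cells 10 held a gene-body site, with 23 sites, of which 16 had lower and 7 higher values in R397W (median -0.83, between -2.61 and 1.08 across alternatives). Tcf7, which encodes the factor TCF-1, had 194 and 164 in R397W Foxp3, 344 and 179 in WT Foxp3, 217 and 104 in R397W IgG, and 178 and 56.7 in WT IgG. Its WT Foxp3 libraries exceeded its WT IgG libraries, and in R397W both ranges overlapped. Foxp1, which encodes a forkhead factor related to Foxp3, held 7 sites, and the strongest had 194 and 24.5 in R397W Foxp3, 193 and 79.6 in WT Foxp3, 97.3 and 34.4 in R397W IgG, and 40.3 and 0 in WT IgG. In Foxp1 the R397W and WT Foxp3 libraries overlapped.

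Of 27 effector Treg genes 6 held a gene-body site, with 15 sites, 9 lower and 6 higher in value in R397W (median -0.60, between -2.96 and 0.76 across alternatives). Cd44, which encodes an adhesion receptor of activated T cells, had 213 and 7.09 in R397W Foxp3, 196 and 19.1 in WT Foxp3, 61.1 and 20.4 in R397W IgG, and 20.5 and 75.1 in WT IgG. Tnfrsf9, which encodes the costimulatory receptor 4-1BB, had 134 and 0 in R397W Foxp3, 142 and 113 in WT Foxp3, 54.3 and 0.636 in R397W IgG, and 128 and 81.1 in WT IgG. Replicates of a group lay far apart in Cd44, and at Tnfrsf9 both R397W groups had a nearly empty library.

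**Figure D4:**
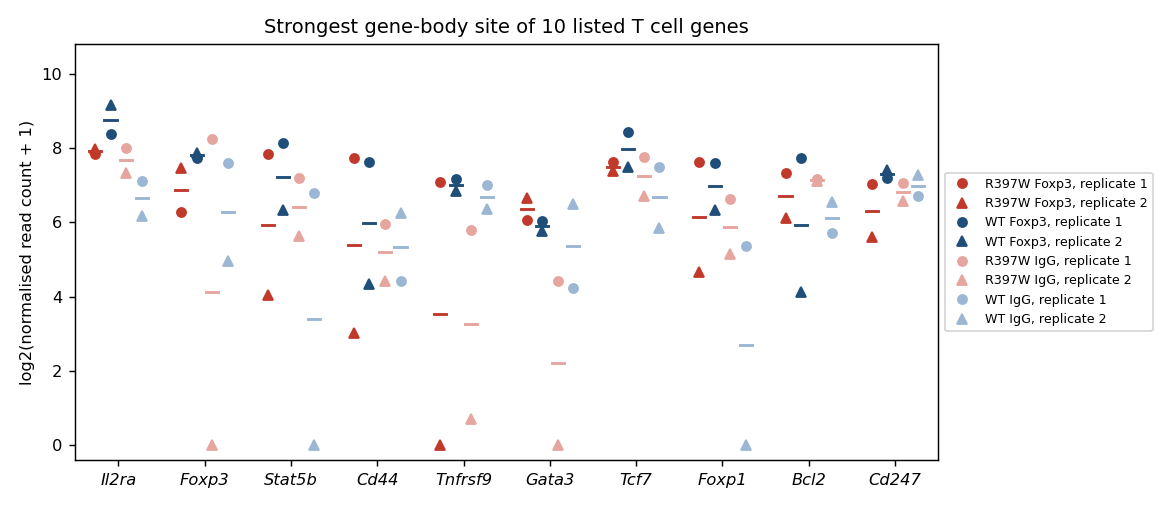
log2(normalised read count + 1) at the gene-body site with the highest mean Foxp3 signal of 10 listed T cell genes, with groups in the order R397W Foxp3, WT Foxp3, R397W IgG and WT IgG, circles for replicate 1, triangles for replicate 2 and bars for the mean of 2 libraries. WT Foxp3 is the highest group at Il2ra, where it had 329 and 568. Replicates lie far apart at Cd44, in the R397W groups at Tnfrsf9, and in some groups of other genes, such as R397W IgG at Foxp3.

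Genes of T cell receptor signalling held sites in 10 of 20 cases, with 22 sites, 13 lower and 9 higher in value in R397W (median -0.19, between -1.94 and 1.68 across alternatives). Cd247, which encodes the zeta chain of the receptor, had its strongest site at 129 and 47.7 in R397W Foxp3, 146 and 167 in WT Foxp3, 131 and 94.8 in R397W IgG, and 103 and 152 in WT IgG. A weaker Cd247 site, at chr1:165837550-165837950, was the list's single site with an unadjusted p below 0.05, and Cd247 had there 28.9 and 10.95 in R397W Foxp3, 158 and 237 in WT Foxp3, 13.6 and 0 in R397W IgG, and 56.2 and 0.498 in WT IgG. Fyn, which encodes a kinase of the Src family, had 63.0 and 126 in R397W Foxp3, 91.0 and 15.4 in WT Foxp3, 67.9 and 0 in R397W IgG, and 58.8 and 0 in WT IgG. The genotypes overlapped at Fyn.

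Of 25 chromatin genes 11 held a gene-body site, with 22 sites, 14 lower and 8 higher in value in R397W (median -0.47, between -1.27 and 0.22 across alternatives). Kmt2d, which encodes a histone methyltransferase, had 137 and 69.6 in R397W Foxp3, 27.9 and 183 in WT Foxp3, 83.7 and 151 in R397W IgG, and 90.5 and 388 in WT IgG, with all 4 groups overlapping. TGF-beta pathway genes held sites in 4 of 9 cases, with 11 sites, 7 lower and 4 higher in value in R397W (median -1.02, between -2.76 and -0.05 across alternatives). All 11 had a higher fitted value with anti-Foxp3 than with IgG in WT, and 0 of them reached an unadjusted p of 0.05 in limma. Smad3, which encodes a signal carrier of the pathway, had 113 and 87.0 in R397W Foxp3, 181 and 266 in WT Foxp3, 158 and 64.9 in R397W IgG, and 83.3 and 270 in WT IgG. Smad7, which encodes an inhibitor of it, had 123 and 195 in R397W Foxp3, 147 and 68.4 in WT Foxp3, 140 and 71.3 in R397W IgG, and 111 and 75.6 in WT IgG.

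The remaining lists had few gene-body sites. Of 12 AP-1, IRF and NFAT genes 1 held sites, namely Irf2, with 49.9 and 31.6 in R397W Foxp3, 76.4 and 16.8 in WT Foxp3, 49.8 and 0 in R397W IgG, and 0 and 0 in WT IgG at the stronger of 2. Of 10 genes of the NF-kB and TNF receptor list 2 held a site each. Tnfaip3, an inhibitor of NF-kB signalling, had 31.5 and 0 in R397W Foxp3, 108 and 0.931 in WT Foxp3, 36.2 and 33.7 in R397W IgG, and 19.8 and 0 in WT IgG. Rel, an NF-kB subunit, had 0 and 1.29 in R397W Foxp3, 19.4 and 0 in WT Foxp3, 2.26 and 0 in R397W IgG, and 0 and 0 in WT IgG. Both sites had a nearly empty library in each Foxp3 group. Gene-body sites were held by 3 of 4 Treg marker genes, and by 0 of 6 B cell, 0 of 5 myeloid, and 0 of 5 CD8 T and NK cell marker genes, against the 5.48% of all genes. With so low a share over all genes, and since a binding site does not measure expression, these counts do not check the sorted cells, and the purity of the sort was not tested.

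The genes with the most gene-body sites mostly carried weak ones. Dock10, which encodes a guanine nucleotide exchange factor, held 17 sites over 224.7 kb, with a mean of 36.6 and 4.36 in R397W Foxp3, 28.7 and 2.36 in WT Foxp3, 25.0 and 2.32 in R397W IgG, and 16.0 and 4.16 in WT IgG. Dock8, a relative needed for lymphocyte migration, held 14 sites, with a mean of 10.9 and 2.81 in R397W Foxp3, 19.3 and 3.39 in WT Foxp3, 18.4 and 7.55 in R397W IgG, and 5.76 and 0 in WT IgG. The replicate 2 libraries had no reads at most sites of both genes, 15 of 17 in Dock10 and 13 of 14 in Dock8 for R397W Foxp3.

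Chd2, which encodes a chromatin remodeller, and Usp24, which encodes a deubiquitinase, held 13 sites each, Ankrd44 held 12, and 4932438A13Rik held 11, as did Mycbp2 and Fryl. In Chd2 the mean was 17.2 and 4.91 in R397W Foxp3, 19.5 and 0 in WT Foxp3, 20.0 and 2.45 in R397W IgG, and 1.68 and 0 in WT IgG. WT IgG was the lowest group in Chd2, and the R397W IgG libraries overlapped the Foxp3 libraries of both genotypes. In Ankrd44 the mean was 36.3 and 21.1 in R397W Foxp3, 33.6 and 6.21 in WT Foxp3, 17.0 and 20.1 in R397W IgG, and 13.1 and 3.81 in WT IgG. Its 12 sites comprised 4 with a lower and 8 with a higher value in R397W than in WT Foxp3.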

How the data were processed

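CUT&Tag signal was analysed in 8 libraries, grouped by their titles. The deposited files hold a signal per site and library, a normalised read count, for 3 classes of sites scaled separately by the authors. Per the submitters' processing notes, the tools were Bowtie2 2.5.2 and DiffBind 3.12.0 and the genomes mm10 and dm6, and coordinates are taken as mm10 and printed as deposited. Site calling and duplicate removal are not given in the sources used here. In the common file, every nonzero value (100%) was a multiple of what 1 read is worth (tolerance 0.01), and the factors equalled median-of-ratios factors over 815 common sites with reads in all 8 libraries. Such factors remove a change shared by all sites. The deposited values are labelled as spike-in normalised, and how a spike-in entered these factors cannot be told from the sources used here.

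Sites were placed with the RefSeq gene table of GRCm38.p6, and strand and starts came from RefSeq start windows of the same build. A site in overlapping genes was counted under the longest, and under each of them in the gene lists. limma 3.58.1 (R 4.3.3), two-sided and with trended empirical Bayes, was fitted to log2(normalised read count + 1) over all 5521 sites, with Benjamini-Hochberg adjustment over all of them and no filter. Fold changes on that scale are reduced where values are low in all libraries, but a single empty library can enlarge them. At Arhgef10 the log2 difference of Foxp3 from IgG in WT was 4.58 on that scale and 1.63 by edgeR and by DESeq2. Genotypes were compared within the 4 Foxp3 or 4 IgG libraries, and Foxp3 with IgG in a fit of all 8. Comparisons that use the same libraries are not independent. edgeR 4.0.16 (quasi-likelihood) and DESeq2 1.42.0 were run on the recovered reads of the 3847 common sites alone. Scripts were tested on simulated data. Counts cover counting error only.

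Members, gene lists and tests were chosen with earlier results of these data known. Named sites are those called, the 6 with the most Foxp3 signal, and the extremes among sites whose groups do not overlap. Those extremes were taken both from sites with reads in all 8 libraries and from all gene-body sites. Also named are the 6 genes with the most sites, the strongest sites of listed genes, and those nearest the 1 kb limit. Of the sites this rule names, 1 is not reported here. The alternatives used pseudocounts of 0.5 or 5, dropped the lowest 25% of sites, or used equal totals, no trend, a replicate block, each library left out, a 5 kb limit, genes over 500 bp and values capped at the 99th percentile.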

Additional observations from a re-analysis of the deposited data

Results flagged for a closer look

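At 5 named gene-body sites, both Foxp3 libraries lay on one side of both IgG libraries in R397W and on the other side in WT. All 5 were named as extremes of R397W minus WT Foxp3 or of Foxp3 minus IgG in WT, a choice that favours such reversals. The difference between genotypes on the log2 scale, R397W minus WT, was 3.275 at Uggt1, -5.055 at Fam169b, -7.29 at Eps15l1, -3.791 at Chd7 and -5.304 at Prex1. The interaction itself was tested and passed at none of them (limma adjusted p = 1.00 at Uggt1, 1.00 at Fam169b, 1.00 at Eps15l1, 0.841 at Chd7 and 1.00 at Prex1). At Chd7 the log2 difference of Foxp3 from IgG was -1.56 in R397W and 2.23 in WT. At Uggt1 it was 1.73 in R397W and -1.54 in WT. Over all 2226 gene-body sites, 38 were lower than IgG in R397W and higher in WT, and 3 were the reverse, while over all 5521 sites these counts were 101 and 31. The first count was thus a similar share of gene-body sites and of all sites, and the second a smaller share of gene-body sites.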

How the results depend on the processing

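With 2 libraries a group, single libraries set most counts. For R397W minus WT in Foxp3 libraries, the 0 calls stayed at 0 under every alternative but one and ranged from 0 to 340 when a library was left out. For Foxp3 minus IgG in WT, the 1 call became 2 with a pseudocount of 0.5, 2 without the lowest 25% of sites, and 0 with a pseudocount of 5, with equal totals, without the trend, with edgeR and with DESeq2, and ranged from 0 to 102 when a library was left out (WT Foxp3 replicate 1 left out gave 11, WT Foxp3 replicate 2 gave 102 and WT IgG replicate 1 gave 9). For Foxp3 minus IgG in R397W the count was 0 under every alternative. For the difference between genotypes it was 0 but ranged from 0 to 100 with a library left out, where 100 was without WT Foxp3 replicate 2. For R397W minus WT in IgG libraries it was 0, became 1 (Zbtb7a, lower) without the lowest 25% of sites, and ranged from 0 to 417, with 7 without WT IgG replicate 1 and 417 without R397W IgG replicate 2. With a group of 1 library, its spread is assumed to be that of the others. The cause of these changes was not tested. The ratio of Foxp3 to IgG was 1.04 in R397W and 1.30 in WT over sites with reads in all 8 libraries, and with a library left out it ranged from 0.792 to 1.54 in R397W and from 1.12 to 2.28 in WT. Titles give same-numbered Foxp3 and IgG libraries of a genotype the same sample name, but the labels do not say that they came from the same cells. Deviations of same-numbered libraries correlated at 0.17 (R397W and WT Foxp3), 0.16 (R397W IgG and WT Foxp3), 0.14 (R397W Foxp3 and IgG), 0.11 (R397W Foxp3 and WT IgG), 0.087 (R397W and WT IgG) and 0.04 (WT Foxp3 and IgG). As 2 of these 6 were under 0.1, the pairing was not taken as shown, although the libraries numbered 2 were sparse in every group. A correlation over sites leaves out a shift shared by all sites, so it cannot register that sparsity or decide the question. A replicate block gave 0 calls for R397W minus WT Foxp3, 1 in WT (Zbtb7a, lower), 1 for the difference between genotypes (Zbtb7a, higher), 0 for Foxp3 minus IgG in R397W and 0 in IgG libraries, with 47 against 7 gene-body sites lower unadjusted for R397W minus WT Foxp3, and 151 against 56 higher for Foxp3 minus IgG in WT. The limit of 5 kb kept 1825 sites. Of the log2 differences at 40 named sites, 8 of 319 changed sign under other settings for R397W minus WT Foxp3 and 6 of 319 for Foxp3 minus IgG in WT, as did 19 of 160 and 18 of 320 with a library left out. Sites without reads reached 73.0% of gene-body sites in WT IgG replicate 2. That library had more reads in common sites than WT IgG replicate 1 (243342 against 233962), and the reason for the empty sites was not tested.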
